A study of Mus musculus with 15 samples.

Results

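The mitotic genes described here are a fixed list of 36 genes whose products drive chromosome segregation and cell division, chosen by name out of the 27666 genes named on a mouse expression array. A probe belonged to a member if its gene name in the files, or the current or an older symbol of its RefSeq accession, was on the list (Cdc2a for Cdk1, Kntc2 for Ndc80 and Cdca1 for Nuf2). All 36 members had a probe (63 probes in all), and all 36 were among the 20321 genes tested. Uteri of ovariectomized CD-1 mice, an outbred stock, were profiled after an injection of an oestrogen or of saline, and the arrays formed 5 groups of 3. The E2 24 h and E3 24 h groups received 250 ng of E2 or E3 in 100 µl of saline, with the uterus taken 24 h later. The E2 2 h and E3 2 h groups received the same injections, with the uterus taken 2 h later, and the vehicle group received 100 µl of saline, for which the labels do not single out one of the collection times. E2 and E3 are read here by their usual meaning, oestradiol and oestriol, of which oestriol carries an additional hydroxyl group. Removal of the ovaries, the main source of oestrogen in the mouse, was common to all groups, vehicle included.

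During mitosis, cyclin B and its kinase Cdk1 drive entry, kinesins and microtubule-binding proteins build the spindle, and kinetochores attach the chromosomes to it. The spindle checkpoint holds the cell until every kinetochore is attached, after which the anaphase-promoting complex marks cyclin B and securin for destruction and cytokinesis parts the daughter cells. Transcripts of these proteins accumulate late in the cell cycle, in G2 and mitosis, and are kept low in resting cells. In the ovariectomized rodent uterus oestrogen is known for driving a wave of epithelial cell division about a day after an injection.

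Values are scaled signals, that is the log2 processed signal of a probe minus the 75th percentile of its own array on the log2 scale. Each gene takes its values from the probe with the highest mean, probes with a value on all 15 arrays coming first. A change is a difference of group means on this log2 scale, given with its standard error, and its p is from limma's moderated test in a fit to all 15 arrays, adjusted over the 20321 genes. An adjusted p below 0.05 was taken as a call, and rose and fell are used for called genes. Whether replicates were separate animals is not in the labels, and the p-values reflect sample-to-sample spread that may be technical. In whole tissue, fewer cells of a type and less RNA per cell cannot be told apart. The 75th percentile of the signal was 1053 to 1853, and 63.1% to 80.0% of probes were well above background. All markers of uterine epithelium, stroma, smooth muscle and endothelium on the lists used were well above background on every array.

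Slide and group were largely confounded: the vehicle arrays had a slide to themselves, and E2 and E3 arrays of the same time never shared a slide. In the E3 24 h group, replicate 1 stood apart from replicates 2 and 3 in the mitotic genes. Over all genes tested, limma's array weights, lower for arrays further from their group means, were 0.563, 0.241 and 1.07 for replicates 1, 2 and 3. The weight of replicate 2 and its share of probes well above background, 63.1%, were the lowest of all arrays. The median of the 36 members, each relative to its vehicle mean, was 1.43 on E3 24 h replicate 1, against 0.46 and 0.32 on replicates 2 and 3. Replicate 1 held the highest value of that group for 35 of 36 members. Within the vehicle group, replicate 3 was the highest for 31 members, with a median of 0.32 against -0.19 and -0.10 on the other two. Counts and medians of members in the comparisons that use these arrays are given with and without them.

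The probes are 60 bases long, and those of Ccnb1, Ube2c and Top2a are shown. Ube2c had the largest rise with E2 at 24 h, Top2a the largest difference between E2 and E3 at 24 h, and Ccnb1 encodes the cyclin that drives mitotic entry. They lie at chr13:97885282-97885341 (minus strand), chr2:164513170-164513229 (plus strand) and chr11:99104969-99105783 (minus strand, a range longer than the probe) in build mm7, as given in the files, 5′ to 3′.
Ccnb1: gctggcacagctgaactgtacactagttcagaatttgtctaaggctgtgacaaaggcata
Ube2c: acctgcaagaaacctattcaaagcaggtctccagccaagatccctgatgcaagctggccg
Top2a: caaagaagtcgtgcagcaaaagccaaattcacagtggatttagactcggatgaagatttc

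The comparison of E2 24 h with vehicle asks how the mitotic genes stood a day after E2. All 36 members rose and 0 fell, against 21.0% of all genes tested that were called higher and 22.4% called lower. The rises had a median of 1.91, against -0.02 over all genes, and ran from 1.03 for Pttg1 to 2.53 for Ube2c. In 14 members the rise was 4-fold or more. On all 3 E2 24 h arrays every member lay above all 3 vehicle arrays, which held for 27.1% of all genes, and limma's adjusted p ran from 3.2e-05 to 0.0072. All 36 were also called with any 1 array left out, vehicle replicate 3 included (median 2.06), and within the arrays of scan day 1 (median 1.93).

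With E3 at 24 h fewer members differed from vehicle by the test. Of 36, 13 rose, against 9.63% of all genes tested, and 0 fell, against 10.7% of all genes. The 13 were Ccnb1, Ccnb2, Aurka, Birc5, Cdca8, Cenpe, Kif20a, Kif2c, Cdc20, Ube2c, Espl1, Cdca3 and Mki67. The median change was 0.73, against -0.01 over all genes, from -0.01 for Ttk to 1.53 for Ccnb2, and 35 of 36 changes were positive. In 14 members all E3 24 h arrays lay above all vehicle arrays, against 16.9% of all genes. Without E3 24 h replicate 1, 6 members were called, a count near the share of all genes called higher, 12.3% (Ccnb1, Ccnb2, Cdca3, Cenpe, Kif20a and Ube2c, with a median of 0.37 over the list). The share over all genes thus rose from 9.63% without that array, while the count of members fell from 13 to 6. Without replicate 2, 10 were called (median 0.86), and without replicate 3, 17 were called (median 0.95). Leaving out vehicle replicate 1 left 1 call and leaving out vehicle replicate 2 left 2, whereas 16 members were called without vehicle replicate 3. Calls over all genes also dropped without vehicle replicate 1 (counts in the closing section), by a smaller proportion than those of the members. No share over all genes is given for the counts of 10, 17, 2 and 16. A fit to the E3 24 h and vehicle arrays alone called 0 members and 1 gene in all. In limma's fit to all arrays 22 members had an unadjusted p under 0.05, against 7293 of 20321 genes.

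E2 and E3 at 24 h, given at the same dose, were set against each other to ask if the oestrogens differed. Of 36 members, 27 were higher with E2, against 8.97% of all genes tested, and 0 were lower, against 6.76%. All 36 differences were positive, with a median of 1.21 against -0.02 over all genes, from 0.55 for Cenpa to 1.68 for Top2a. All 3 E2 arrays lay above all 3 E3 arrays in 27 members, against 14.9% of all genes. The size of the gap depended on the E3 array that stood apart: 35 members were called higher without E3 24 h replicate 1 (median 1.53), against 7.79% of all genes, 13 without replicate 3 (median 0.97) and 22 without replicate 2 (median 1.08). Without E2 24 h replicate 2, 15 were called (median 1.13). No share over all genes is given for the counts of 13, 22 and 15. A fit to these 6 arrays alone called 0 members (median 1.21). Within scan day 1 the count was 6 (median 1.08), also given without a share over all genes. With slide as a fixed block the median was 1.73. Replicates 1 and 3 of E3 24 h had slide 4 to themselves, so in that fit the E3 mean rested on replicate 2 alone. E2 and E3 at 24 h were each compared with the same vehicle arrays, so their changes from vehicle are given side by side only.

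**Figure D1:**
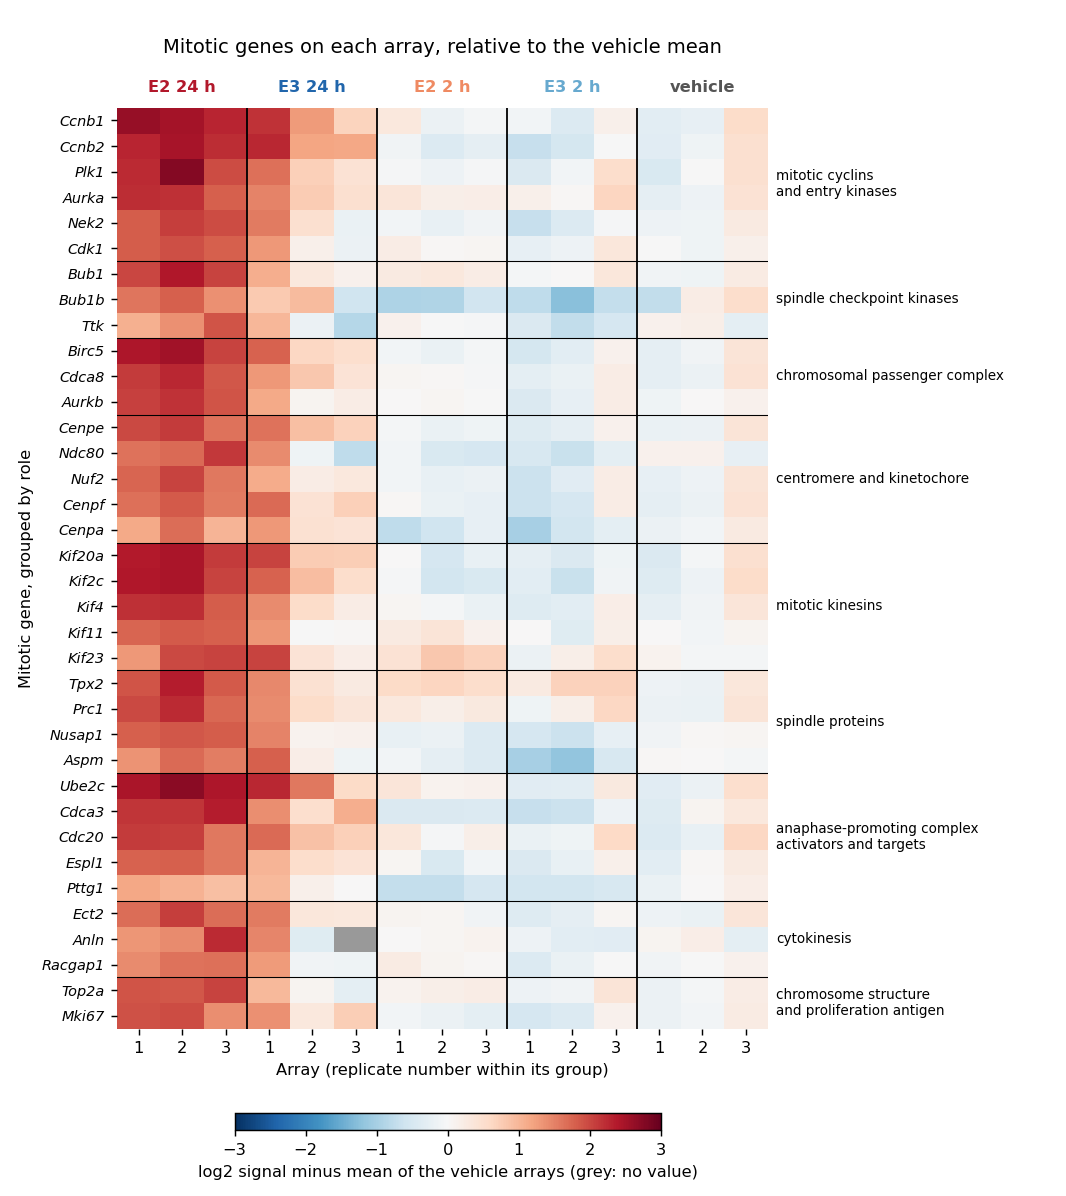
Scaled signal of each of the 36 mitotic genes (lines, grouped by role) on each of the 15 arrays (columns, by group and replicate), minus the gene's mean over the vehicle arrays, on the log2 scale; grey marks an array left out for Anln. All E2 24 h arrays are high throughout, E3 24 h replicate 1 is the highest of its group for 35 of 36 genes, and the 2 h and vehicle arrays lie mostly near 0.

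Among the mitotic cyclins and entry kinases, all 6 members rose after E2, with a median change of 2.20, and 3 rose after E3, where the median was 0.92, and 5 were higher with E2 than with E3. Ccnb1, cyclin B1, is the partner that activates Cdk1 for entry into mitosis. Its scaled signals were -0.16, -0.29 and -0.49 in E2 24 h uteri and -0.61, -1.51 and -2.11 in E3 24 h uteri, against -3.10, -3.02 and -2.22 in vehicle uteri. The 3 groups did not overlap, and vehicle replicate 3 was nearest to the E3 arrays. With E2, Ccnb1 rose by 2.47 ± 0.33 (adjusted p = 1.6e-04), and with E3 it rose by 1.37 ± 0.33 (adjusted p = 0.017), a difference of 1.10 ± 0.33 (adjusted p = 0.044).

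Ccnb2, cyclin B2, gave 3.28, 3.46 and 3.20 with E2 and 3.24, 2.18 and 2.14 with E3, against 0.64, 0.85 and 1.46 in vehicle uteri. The first E3 array lay within the range of the E2 arrays and the other E3 arrays lay between E2 and vehicle. Ccnb2 rose by 2.33 ± 0.29 with E2 and by 1.53 ± 0.29 with E3 (adjusted p = 0.0073), the largest E3 rise of the list. The gap between E2 and E3 was 0.80 ± 0.29, which did not pass the test (adjusted p = 0.088).

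Cdk1, the kinase whose activity starts mitosis, read 1.03, 1.14 and 1.00 with E2 and 0.51, -0.64 and -0.96 with E3, against -0.81, -0.93 and -0.63 with vehicle. E3 replicate 1 was high, while the other 2 E3 arrays lay within the vehicle range or below it. Cdk1 rose by 1.84 ± 0.29 with E2, its E3 change of 0.42 ± 0.29 did not pass (adjusted p = 0.32), and the difference between them was 1.42 ± 0.29 (adjusted p = 0.0073). Plk1, a polo-like kinase that promotes entry, spindle assembly and exit, read 2.40, 2.93 and 2.14 with E2 and 1.82, 0.89 and 0.60 with E3, against -0.29, 0.15 and 0.66 with vehicle. The E2 arrays lay above all others, and the lowest E3 array lay below the highest vehicle array. Plk1 rose by 2.32 ± 0.34 with E2 and was 0.93 ± 0.34 with E3 (adjusted p = 0.073), with a difference of 1.39 ± 0.34. Aurka, the centrosomal Aurora kinase, rose by 2.07 ± 0.26 with E2 and 0.92 ± 0.26 with E3. Nek2, a kinase that separates centrosomes, rose by 1.94 ± 0.33 with E2, and its E3 change was 0.62 ± 0.33 without passing the test. Both were called in the comparison of E2 with E3, with differences of 1.16 ± 0.26 and 1.33 ± 0.33.

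All 3 spindle checkpoint kinases rose after E2, by a median of 1.59, whereas 0 were called after E3, with a median of 0.38, and 2 were higher with E2 than with E3. Bub1, a checkpoint kinase of the kinetochore, read -1.27, -0.88 and -1.26 with E2 and -2.18, -2.97 and -3.14 with E3, against -3.39, -3.41 and -3.04 with vehicle. E2 stood clear of both other groups, and E3 and vehicle overlapped. Bub1 rose by 2.14 ± 0.22 with E2, was 0.51 ± 0.22 with E3 (adjusted p = 0.12), and differed by 1.63 ± 0.22 between them (adjusted p = 7.2e-04), the smallest adjusted p of the list in that comparison. Bub1b, which encodes the checkpoint protein BubR1, read 0.56, 0.73 and 0.31 with E2 and -0.28, -0.10 and -1.67 with E3, against -1.80, -0.84 and -0.54 with vehicle. Here E3 replicates 1 and 2 were both high, replicate 3 was low, and the vehicle arrays were widely spread too. Bub1b rose by 1.59 ± 0.39 with E2, and neither its E3 change of 0.38 ± 0.39 nor the difference of 1.21 ± 0.39 between E2 and E3 passed (adjusted p = 0.053). Ttk, the kinase Mps1 that activates the checkpoint, rose by 1.44 ± 0.36 with E2, and its E3 change was -0.01 ± 0.36. It was the 1 member not well above background on every array, with E3 24 h replicates 2 and 3 below that level, so its difference between E2 and E3, 1.45 ± 0.36, involves dim spots.

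The chromosomal passenger complex corrects faulty attachments and later guides cytokinesis, and its 3 members rose with E2 (median 2.08). Birc5 (survivin) and Cdca8 (borealin), the targeting subunits, also rose with E3, and all 3 members were higher with E2 than with E3. Aurkb, the Aurora kinase of the complex, read -0.88, -0.76 and -1.05 with E2 and -1.79, -2.85 and -2.72 with E3, against -3.06, -2.92 and -2.80 with vehicle. The E2 arrays lay close together above all others, and only replicate 1 of E3 was clearly above the vehicle range. Aurkb rose by 2.03 ± 0.24 with E2 and was 0.48 ± 0.24 with E3 (adjusted p = 0.18), a difference of 1.55 ± 0.24 (adjusted p = 0.0016). Birc5 read 3.59, 3.69 and 3.21 with E2 and 2.94, 1.79 and 1.68 with E3, against 0.90, 1.05 and 1.55 with vehicle. The groups did not overlap, although E3 replicate 3 was close to vehicle replicate 3. Birc5 rose by 2.33 ± 0.30 with E2 and 0.97 ± 0.30 with E3, and Cdca8 by 2.08 ± 0.24 and 0.85 ± 0.24.

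At the centromere and kinetochore, 5 of 5 members rose with E2 (median 1.79) and 1, Cenpe, with E3. Cenpa, the histone variant that marks centromeres, read -0.42, 0.11 and -0.55 with E2 and -0.27, -1.10 and -1.16 with E3, against -1.74, -1.66 and -1.31 with vehicle. E3 replicate 1 lay among the E2 arrays, and all E3 arrays lay above all vehicle arrays. Cenpa rose by 1.28 ± 0.27 with E2, was 0.72 ± 0.27 with E3 (adjusted p = 0.076), and had the smallest difference of the list between E2 and E3, 0.55 ± 0.27 (adjusted p = 0.19). Ndc80, which binds microtubules at the kinetochore, read -1.46, -1.39 and -0.97 with E2 and -1.69, -3.22 and -3.85 with E3, against -2.97, -2.97 and -3.35 with vehicle. Replicates 2 and 3 of E3 were within or below the vehicle range while replicate 1 was near the E2 arrays, so the E3 group spanned most of the range. Ndc80 rose by 1.82 ± 0.40 with E2, was 0.18 ± 0.40 with E3, and differed by 1.64 ± 0.40 between them (adjusted p = 0.018). Nuf2, the partner of Ndc80, rose by 1.79 ± 0.27 with E2 and was 0.55 ± 0.27 with E3. Cenpe, a kinetochore motor, rose by 1.91 ± 0.24 and 1.08 ± 0.24. Cenpf, a large kinetochore protein of late G2, rose by 1.68 ± 0.31 with E2 and was 0.94 ± 0.31 with E3 (adjusted p = 0.051).

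All 5 mitotic kinesins rose with E2 (median 2.07) and 2, Kif20a and Kif2c, with E3, and 4 were higher with E2 than with E3. Kif11, the motor Eg5 that pushes the spindle poles apart, read -2.89, -2.78 and -2.84 with E2 and -3.31, -4.64 and -4.60 with E3, against -4.63, -4.72 and -4.55 with vehicle. E3 replicate 1 again lay between the groups, with the other 2 E3 arrays inside the vehicle range. Kif11 rose by 1.79 ± 0.28 with E2, was 0.45 ± 0.28 with E3 and differed by 1.35 ± 0.28 between them. Kif20a, a kinesin of the central spindle, read 2.73, 2.80 and 2.46 with E2 and 2.37, 1.11 and 1.10 with E3, against -0.07, 0.29 and 0.84 with vehicle. The 3 groups did not overlap. Kif20a rose by 2.31 ± 0.32 with E2 and by 1.17 ± 0.32 with E3, a difference of 1.13 ± 0.32. Kif2c, which depolymerises microtubules at centromeres, read -1.74, -1.69 and -2.10 with E2 and -2.36, -3.22 and -3.62 with E3, against -4.53, -4.30 and -3.59 with vehicle. E3 and vehicle overlapped at 1 array each, E3 replicate 3 and vehicle replicate 3, and Kif2c rose by 2.30 ± 0.31 with E2 and 1.07 ± 0.31 with E3. Kif4, a chromosome-bound kinesin, rose by 2.07 ± 0.28 with E2, and Kif23, a motor of the central spindle, by 1.77 ± 0.39; their E3 changes of 0.73 ± 0.28 and 0.88 ± 0.39 did not pass.

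All 4 spindle proteins rose after E2, by a median of 1.90, while after E3 0 rose, with a median of 0.67, and 3 were higher with E2 than with E3. Tpx2, which activates Aurora A and nucleates microtubules, read 0.32, 0.78 and 0.27 with E2 and -0.12, -1.11 and -1.29 with E3, against -1.72, -1.75 and -1.24 with vehicle. The E2 arrays stood clear, and E3 replicate 3 fell below the highest vehicle array. Tpx2 rose by 2.03 ± 0.27 with E2, was 0.73 ± 0.27 with E3 and differed by 1.30 ± 0.27. Aspm, a spindle pole protein, read -2.22, -1.86 and -2.03 with E2 and -1.77, -3.35 and -3.69 with E3, against -3.51, -3.54 and -3.62 with vehicle. On E3 replicate 1 it was above all E2 arrays, and on E3 replicate 3 below all vehicle arrays. Aspm rose by 1.52 ± 0.38 with E2, and neither its E3 change of 0.62 ± 0.38 nor its difference of 0.90 ± 0.38 was called. Prc1, which bundles the central spindle, rose by 1.98 ± 0.28, and Nusap1, a microtubule-bundling protein, by 1.82 ± 0.29 with E2; both were higher with E2 than with E3, by 1.21 ± 0.28 and 1.25 ± 0.29.

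All 5 activators and targets of the anaphase-promoting complex rose with E2 (median 1.91), and 4 of the 5 rose with E3, the highest share of any role on the list. Cdc20, the activator that switches the complex on when the checkpoint is satisfied, read 3.62, 3.59 and 3.10 with E2 and 3.23, 2.40 and 2.25 with E3, against 1.12, 1.31 and 2.16 with vehicle. E3 replicate 1 fell within the E2 range, and vehicle replicate 3 was just below the lowest E3 array. Cdc20 rose by 1.91 ± 0.32 with E2 and 1.10 ± 0.32 with E3, and its difference of 0.81 ± 0.32 did not pass (adjusted p = 0.11). Ube2c, the ubiquitin-conjugating enzyme of the complex, read 1.12, 1.39 and 1.11 with E2 and 0.94, 0.27 and -0.73 with E3, against -1.65, -1.50 and -0.81 with vehicle. The groups did not overlap, and E3 replicate 3 was close to vehicle replicate 3. With E2, Ube2c rose by 2.53 ± 0.35 (adjusted p = 1.9e-04), the largest E2 rise of the list. With E3 it rose by 1.47 ± 0.35 (adjusted p = 0.016), which left a difference of 1.05 ± 0.35 (adjusted p = 0.062).

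Cdca3, which takes part in the destruction of the kinase Wee1, read 1.58, 1.56 and 1.79 with E2 and 0.83, -0.06 and 0.53 with E3, against -0.95, -0.50 and -0.26 with vehicle. In this gene the middle E3 array was replicate 3, and no groups overlapped. Cdca3 rose by 2.21 ± 0.23 with E2 and 1.00 ± 0.23 with E3. Pttg1, securin, which holds separase inactive until anaphase, read 2.77, 2.64 and 2.50 with E2 and 2.57, 1.76 and 1.62 with E3, against 1.40, 1.61 and 1.80 with vehicle. E2 lay above vehicle on every array, while E3 overlapped both. Pttg1 rose by 1.03 ± 0.20 with E2, the smallest E2 rise of the list, and was 0.38 ± 0.20 with E3. Espl1, separase, which cuts cohesin at anaphase, rose by 1.72 ± 0.21 with E2 and 0.65 ± 0.21 with E3.

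The 3 cytokinesis members rose after E2, by a median of 1.66, and after E3 0 rose, with a median of 0.55. Anln, the scaffold anillin of the contractile ring, read -3.16, -3.06 and -2.23 with E2 and -3.02 and -4.84 on the 2 E3 arrays with a value, against -4.39, -4.27 and -4.77 with vehicle. E3 24 h replicate 3 was dropped for its probe because the spot was marked as an outlier in the files. Of the remaining E3 arrays, replicate 1 lay among the E2 arrays and replicate 2 below all vehicle arrays. Anln rose by 1.66 ± 0.38 with E2, and its E3 change of 0.55 ± 0.43 and its difference of 1.11 ± 0.43 rest on n = 2 E3 arrays and did not pass. Ect2, the exchange factor that activates RhoA at the cell equator, rose by 1.81 ± 0.29 with E2 and was 0.74 ± 0.29 with E3. Racgap1, its partner on the central spindle, rose by 1.57 ± 0.29 and was 0.35 ± 0.29. Both were higher with E2 than with E3, by 1.07 ± 0.29 and 1.22 ± 0.29.

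Top2a, the topoisomerase that untangles sister chromatids, read 0.06, 0.03 and 0.18 with E2 and -0.87, -1.76 and -2.12 with E3, against -2.01, -1.89 and -1.61 with vehicle. The E2 arrays were within a narrow band above all others, and E3 replicates 2 and 3 lay in or below the vehicle range. Top2a rose by 1.93 ± 0.26 with E2 (adjusted p = 1.5e-04), was 0.25 ± 0.26 with E3 (adjusted p = 0.51), and had the largest difference of the list between them, 1.68 ± 0.26 (adjusted p = 0.0015). Mki67, the antigen Ki-67 that coats mitotic chromosomes and serves as a marker of cycling cells, read 3.12, 3.16 and 2.60 with E2 and 2.58, 1.51 and 1.95 with E3, against 1.03, 1.12 and 1.46 with vehicle. Its groups did not overlap, although E3 replicate 1 almost reached the lowest E2 array. Mki67 rose by 1.76 ± 0.26 with E2 and 0.81 ± 0.26 with E3, a difference of 0.95 ± 0.26 (adjusted p = 0.029).

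**Figure D2:**
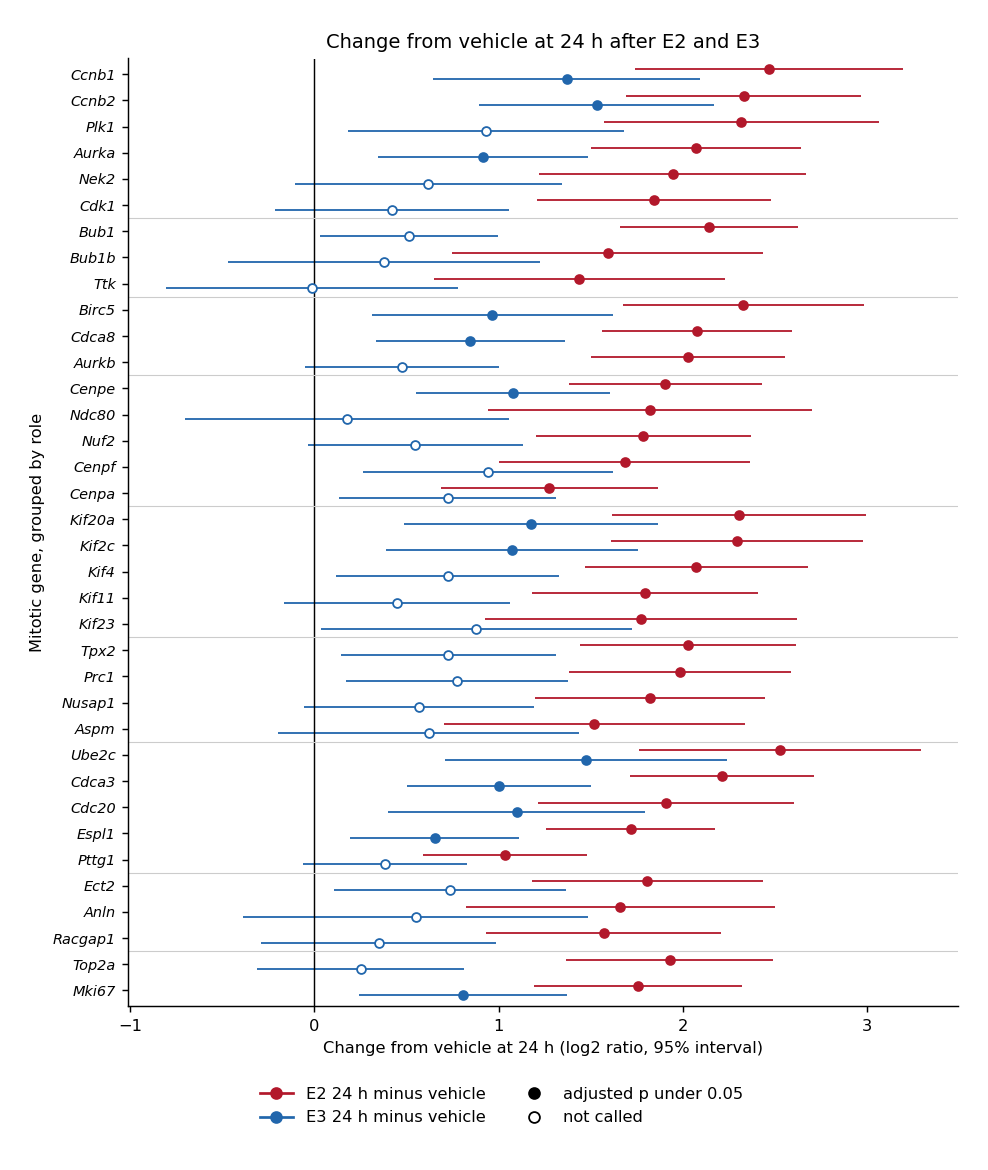
Change of each mitotic gene from vehicle at 24 h (horizontal axis, log2 ratio) with E2 and with E3, with 95% intervals from limma; filled points passed at an adjusted p under 0.05. All 36 E2 points are filled and lie between 1.03 and 2.53, and 13 of the 36 E3 points are filled, the largest being Ccnb2 at 1.53.

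**Figure D3:**
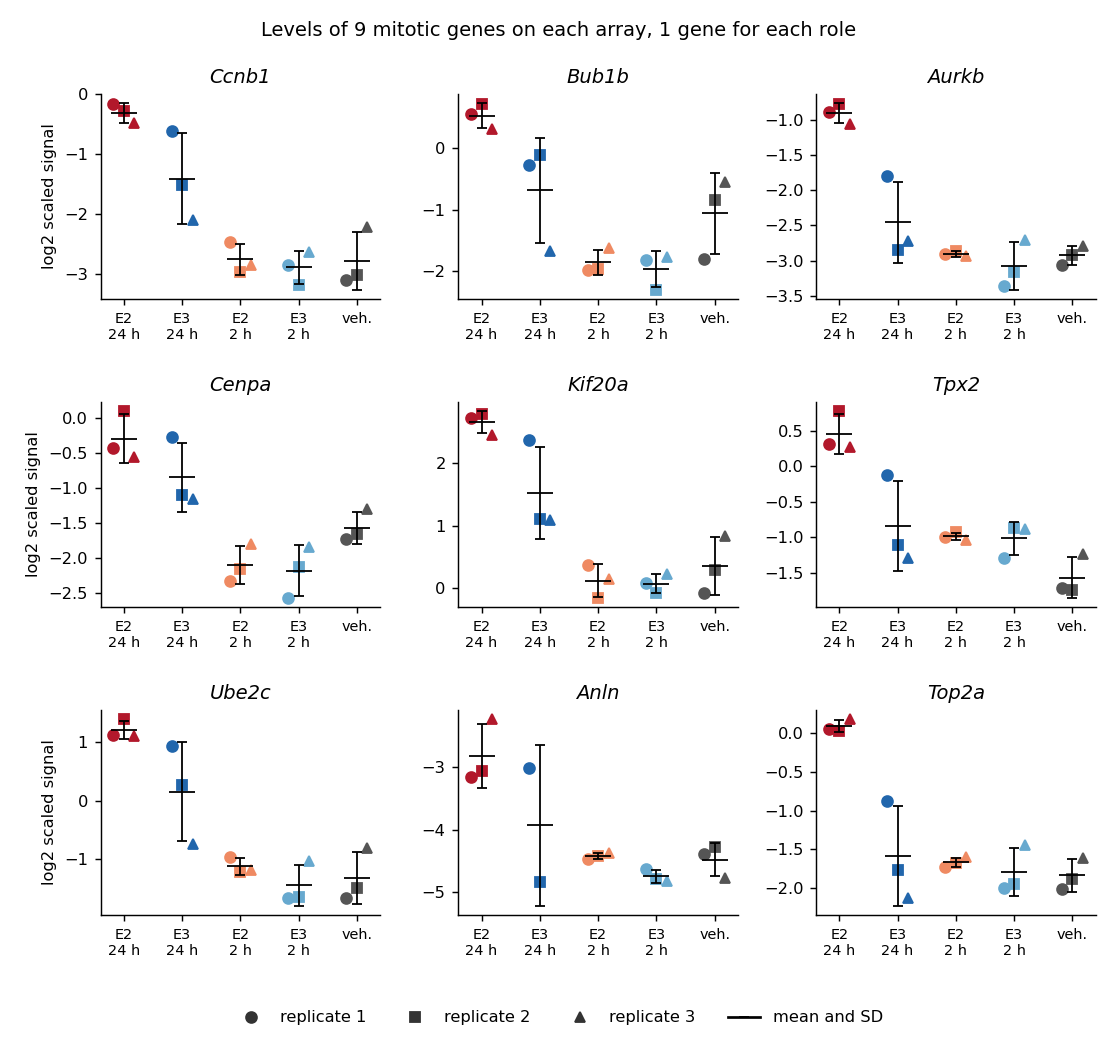
Scaled signal (log2, vertical axis) of 9 mitotic genes, 1 for each role, on each array of the 5 groups; markers show the replicate and bars the mean and SD. Replicate 1 of E3 24 h lies above replicates 2 and 3 in every panel but that of Bub1b, where replicate 2 is the highest, and Anln lacks E3 24 h replicate 3.

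**Figure D4:**
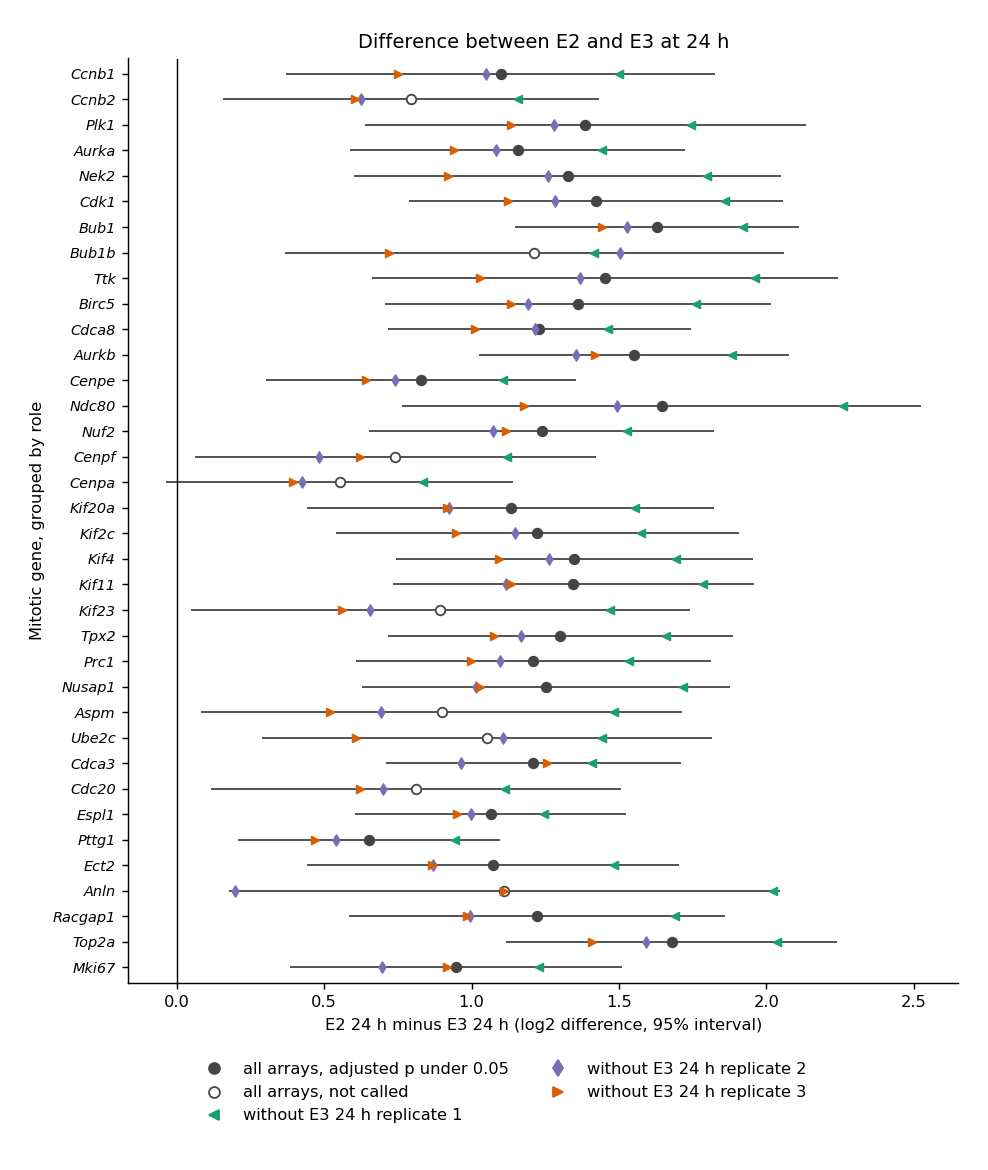
Difference between E2 24 h and E3 24 h for each mitotic gene (horizontal axis, log2) with its 95% interval, and the same difference with 1 E3 array left out at a time. The differences run from 0.55 for Cenpa to 1.68 for Top2a, and leaving out replicate 1 raises the median to 1.53 while leaving out replicate 3 lowers it to 0.97.

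Second probes gave a check within each array. Of 17 further probes that passed the filter, from 15 members, 15 were higher with E2 at 24 h than with vehicle and 2 were not called, with changes of 0.90 to 2.33. With E3 at 24 h 2 of the 17 were higher (0.13 to 1.20), and 10 were higher with E2 than with E3 (0.57 to 1.49). Over all genes tested, 21.0%, 9.63% and 8.97% were called higher in these comparisons, and the E3 count of further probes was near its share. Shares over all probes are not given.

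The comparisons of 2 h with vehicle ask whether the same genes had moved soon after the injection. With E2 at 2 h, 0 members rose and 1, Pttg1, fell, against 15.6% of all genes called higher and 23.1% called lower. The median of the members was -0.07, against -0.14 over all genes, and the range was -0.80 for Bub1b to 0.65 for Kif23. All E2 2 h arrays lay above all vehicle arrays in 3 members and below them in 5, against 21.7% and 33.8% of all genes. With E3 at 2 h, 0 were called in limma's test, against 16.6% of all genes called higher and 23.6% called lower. An unadjusted p under 0.05 in that test was found for 4 members, against 9822 of 20321 genes. The E3 median was -0.20, against -0.16 over all genes, and the range was -0.90 for Bub1b to 0.55 for Tpx2. In 6 members all E3 2 h arrays lay below all vehicle arrays, against 34.2% of all genes, and in 0 above them, against 21.4%. Without vehicle replicate 3, 0 members were called with either oestrogen, with medians of 0.08 with E2 and -0.04 with E3. Arrays outside a comparison enter its estimate of spread, and without E3 24 h replicate 1 or replicate 3 the E2 count was 3 or 2 and the E3 count 5 or 3. No share over all genes is given for these counts. Without E3 2 h replicate 3 the E3 count was 0, with a median of -0.33. These intervals lay within 2-fold of no change for 28 of 36 members with E2 and 24 with E3.

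Pttg1 read 0.90, 0.90 and 1.10 at 2 h with E2 and 1.06, 1.05 and 1.12 at 2 h with E3, and all of these arrays lay below all vehicle arrays. With E2 it fell by 0.64 ± 0.20 (adjusted p = 0.026), and its E3 change was -0.53 ± 0.20 (adjusted p = 0.056). Its call with E2 did not hold without vehicle replicate 2 or 3, without E2 2 h replicate 1 or 2, with slide as a random block, with scan day as a block or scan day 1 alone, and with the array median as the scale. Bub1b read -1.98, -1.97 and -1.62 with E2 and -1.81, -2.30 and -1.78 with E3, all within or below the vehicle range, and its E2 change of -0.80 ± 0.39 (adjusted p = 0.13) and E3 change of -0.90 ± 0.39 (adjusted p = 0.084) did not pass.

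At 2 h the cyclins and entry kinases were close to vehicle. Ccnb1 read -2.46, -2.97 and -2.85 with E2 and -2.86, -3.18 and -2.63 with E3, and Ccnb2 read 0.87, 0.58 and 0.72 with E2 and 0.29, 0.45 and 0.98 with E3. Cdk1 gave -0.56, -0.74 and -0.74 with E2 and -1.03, -0.93 and -0.45 with E3, and Plk1 gave 0.13, 0.03 and 0.13 with E2 and -0.27, 0.10 and 0.70 with E3. In each of these genes both 2 h groups overlapped the vehicle range. Their changes with E2 were 0.02, -0.26, 0.11 and -0.07, and with E3 -0.11, -0.41, -0.01 and 0.00, in that order. For the checkpoint kinase Bub1 the values were -3.005, -2.96 and -3.06 with E2 and -3.33, -3.28 and -2.94 with E3. In the passenger complex, Aurkb read -2.91, -2.86 and -2.94 with E2 and -3.36, -3.16 and -2.70 with E3, and Birc5 1.08, 0.96 and 1.12 with E2 and 0.65, 0.85 and 1.30 with E3. These too overlapped with vehicle.

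For the kinetochore, Cenpa read -2.34, -2.16 and -1.81 with E2 and -2.57, -2.12 and -1.85 with E3, below all vehicle arrays in both groups without passing the test (adjusted p = 0.14 and adjusted p = 0.09). Ndc80 read -3.17, -3.56 and -3.61 with E2 and -3.57, -3.77 and -3.39 with E3, with all E3 arrays below vehicle. Among the kinesins, Kif11 read -4.37, -4.26 and -4.51 with E2 and -4.61, -4.99 and -4.46 with E3, and Kif20a 0.37, -0.15 and 0.14 with E2 and 0.08, -0.08 and 0.22 with E3. In Kif11 all E2 arrays lay above vehicle by a small margin, 0.26 ± 0.28. Kif2c read -4.19, -4.70 and -4.59 with E2 and -4.45, -4.81 and -4.24 with E3. Of the spindle proteins, Tpx2 read -0.99, -0.93 and -1.04 with E2 and -1.29, -0.88 and -0.89 with E3, with all E2 arrays above vehicle, and Aspm -3.65, -3.84 and -3.97 with E2 and -4.56, -4.74 and -4.04 with E3, below all vehicle arrays. Neither passed with either oestrogen.

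Cdc20, the activator, read 1.87, 1.50 and 1.70 at 2 h with E2 and 1.34, 1.39 and 2.12 with E3, and Ube2c -0.96, -1.22 and -1.18 with E2 and -1.65, -1.64 and -1.04 with E3. Both genes lay within or beside the vehicle range. Cdca3 read -1.02, -1.01 and -0.99 with E2 and -1.26, -1.21 and -0.72 with E3, with all E2 arrays below vehicle. Anln gave -4.46, -4.42 and -4.37 with E2 and -4.63, -4.80 and -4.82 with E3, Top2a -1.73, -1.67 and -1.60 with E2 and -1.996, -1.94 and -1.44 with E3, and Mki67 1.12, 1.03 and 0.91 with E2 and 0.69, 0.79 and 1.33 with E3. No change of these passed. In E3 2 h uteri, replicate 3 was the highest of its group for 33 of 36 members.

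E2 and E3 at 2 h, the same dose and time, were then set against each other. Of 36 members 0 were called in limma's test, 0 had an unadjusted p under 0.05, and across all genes 0% were called, with 750 of 20321 at an unadjusted p under 0.05. The differences had a median of 0.12, from -0.11 for Pttg1 to 0.63 for Aspm. All E2 arrays lay above all E3 arrays in 4 members, against 5.95% of all genes. For 30 of 36 members the 95% interval excluded a 2-fold difference either way. For the remaining members a 2-fold difference was inside the interval, so a failed test does not show that the oestrogens acted alike there.

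Setting 24 h against 2 h within each oestrogen uses no vehicle array. With E2, 36 of 36 members were higher at 24 h, against 30.5% of all genes, with a median of 1.91 against 0.12 over all genes. All 24 h arrays lay above all 2 h arrays in all 36, against 35.6% of all genes. The largest rises were Kif2c (2.65 ± 0.31), Cdca3 (2.65 ± 0.23) and Ccnb2 (2.59 ± 0.29), and the smallest was Kif23 (1.13 ± 0.39). With E3, 24 of 36 were higher at 24 h, against 29.7% of all genes, with a median of 0.93 against 0.18 over all genes. All 24 h arrays lay above all 2 h arrays in 20 members with E3, against 32.6% of all genes. There the largest rises were Ccnb2 (1.94 ± 0.29), Ube2c (1.60 ± 0.35) and Aspm (1.51 ± 0.38), and the smallest value was that of Tpx2 (0.17 ± 0.27). Without E3 24 h replicate 1 the E3 count was 17, with a median of 0.57. A fit to these 6 arrays alone called 12. With slide as a fixed block the median was 0.31, and there the E3 24 h mean rested on replicate 2 alone.

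Some slides held both a 24 h and a 2 h array, so the times can also be set against each other within a slide. E2 24 h lay above E2 2 h in 36 of 36 members on slide 2, with a median difference of 2.14. E2 24 h against E3 2 h gave 36 of 36 on slide 3 (median 1.86) and on slide 6 (median 2.29). E3 24 h replicate 2 lay above E2 2 h in 27 of 36 members on slide 5, with a median of 0.40. All genes had medians of 0.03 to 0.19 in these pairs. No slide held E2 and E3 arrays of the same time, and no slide held vehicle and another group, so for those comparisons slide and group cannot be told apart.

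Whether the gap between E2 and E3 was itself larger at 24 h than at 2 h was tested as a difference of differences. It was called in 3 of 36 members, against 3.85% of all genes tested called higher. By the same limma test 23 members had an unadjusted p under 0.05, against 4720 of 20321 genes. The 3 called were Top2a (1.55 ± 0.37, adjusted p = 0.03), Bub1 (1.46 ± 0.31, adjusted p = 0.022) and Aurkb (1.38 ± 0.34, adjusted p = 0.036). All 36 values were positive, with a median of 1.07 against -0.03 over all genes. Without E3 24 h replicate 1 the count was 26. It was 1 without E2 24 h replicate 1, E3 24 h replicate 3 or E2 2 h replicate 2, and 0 without E2 24 h replicate 2, E2 2 h replicate 1, E2 2 h replicate 3 or E3 2 h replicate 3. No share over all genes is given for these counts. Of the 17 further probes of members, 0 were called, a further probe of Top2a included, with values of 0.06 to 1.34.

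Other genes of the mitotic machinery, from lists that share no gene with the 36, were set beside them. Of 64 other mitotic genes tested, 55 rose and 1 was called lower with E2 at 24 h, the median being 1.61. Over all genes, 21.0% were called higher and 22.4% lower. After E3 at 24 h the median was 0.36, with 10 higher and 2 lower, against 9.63% and 10.7% of all genes. Of the 64, 50 were higher with E2 than with E3 and 0 were lower, against 8.97% and 6.76% of all genes. Cdc25c, the phosphatase that activates Cdk1, rose by 2.40 ± 0.34 with E2 and 1.14 ± 0.34 with E3, and Ccna2, cyclin A2, rose by 2.11 ± 0.29 with E2 and was 0.82 ± 0.29 with E3 (adjusted p = 0.063). Pimreg, a gene of proliferating cells, rose by 2.29 ± 0.35 and 1.17 ± 0.35, and Cdkn3, a phosphatase that acts on cyclin-dependent kinases, by 2.01 ± 0.27 and 1.35 ± 0.27. Wee1, the kinase that restrains Cdk1, fell with E3 by 1.10 ± 0.35 and was -0.33 ± 0.35 with E2, and Fbxo5, an inhibitor of the anaphase-promoting complex, fell with E3 by 0.52 ± 0.16. The lower call with E2 was Cdca2, a phosphatase-targeting protein, at -0.48 ± 0.15; its other 2 probes gave 1.54 and 1.84 and were called higher.

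At 2 h, 6 of these 64 were higher and 5 lower in E2 uteri than in vehicle uteri, and in E3 uteri 6 were higher and 7 lower. These are 9.38% higher and 7.81% lower with E2, against 15.6% and 23.1% of all genes, and 9.38% higher and 10.9% lower with E3, against 16.6% and 23.6%. Mad2l1, the spindle checkpoint protein Mad2, stood apart from the 36: it read 3.07, 3.11 and 2.71 at 2 h with E2 and 2.46, 3.04 and 2.98 at 2 h with E3, against -1.40, -1.31 and -1.58 with vehicle. It rose by 4.39 ± 0.24 with E2 and by 4.25 ± 0.24 with E3, and a further probe of the gene gave 4.37 and 4.19. At 24 h its change was 1.37 ± 0.24 in E2 uteri (adjusted p = 8.9e-04) and 0.19 ± 0.24 in E3 uteri (adjusted p = 0.61). Pimreg likewise rose by 3.26 ± 0.35 with E2 and 3.29 ± 0.35 with E3 at 2 h.

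Of 12 condensin and cohesin subunits tested, 5 rose with E2 at 24 h, against 21.0% of all genes. With E3 0 were called, against 9.63% of all genes higher and 10.7% lower. At an unadjusted p under 0.05 limma gave 3, against 7293 of 20321 genes. Ncapg, a condensin subunit, rose by 2.57 ± 0.50 with E2 and was 0.75 ± 0.50 with E3, and Ncaph and Ncapd2, of the same complex, rose by 1.54 ± 0.25 and 1.41 ± 0.22 with E2. Of 13 core subunits of the anaphase-promoting complex, 6 rose with E2, and with E3 3 rose and 1 fell, with medians of 0.40 and 0.13. The shares over all genes were those just given, 21.0% with E2, and 9.63% and 10.7% with E3. Among 21 transcriptional regulators of mitotic genes, 8 rose and 4 fell with E2 at 24 h, against 1 and 1 with E3, and 9 were higher with E2 than with E3. The 4 that fell with E2 are 19.0% of the list, beside 22.4% of all genes. The 1 that rose and the 1 that fell with E3 are 4.76% each, beside 9.63% and 10.7% of all genes. For the 8 that rose with E2 the share over all genes was 21.0%, and for the 9 higher with E2 than with E3 it was 8.97%. Foxm1, a forkhead activator of mitotic genes, read -0.15, -0.18 and -0.63 with E2 and -1.37, -2.08 and -1.81 with E3, against -2.80, -2.67 and -2.15 with vehicle. It rose by 2.22 ± 0.23 with E2 and 0.79 ± 0.23 with E3, a difference of 1.43 ± 0.23 (adjusted p = 0.0018). Mybl2 (B-Myb), which joins the MuvB complex in dividing cells, rose by 1.67 ± 0.20 with E2 and was 0.03 ± 0.20 with E3. E2f8, an atypical E2F repressor, rose by 1.80 ± 0.17 with E2 and was -0.16 ± 0.17 with E3. Rbl2 (p130), which with MuvB represses these genes in resting cells, fell with E2 by 0.65 ± 0.23 and was -0.36 ± 0.23 with E3. A further probe of Rbl2 gave -0.64 ± 0.37 with E2 and was not called. Lin52, a MuvB subunit, fell by 0.95 ± 0.12 with E2 and by 0.66 ± 0.12 with E3. Among the 6 cyclin-dependent kinase inhibitors tested, Cdkn1a (p21) rose at 2 h by 3.90 ± 0.34 with E2 and 3.29 ± 0.34 with E3, and at 24 h its values were 0.29 ± 0.34 and 0.37 ± 0.34. Cdkn1c (p57) fell at 24 h by 1.20 ± 0.16 with E2 and by 0.58 ± 0.16 with E3.

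Marker levels of the cell types that whole uterus can hold were taken for the same groups. For 7 epithelial markers the summed linear level, relative to the 75th percentile of the array, was 252, 191 and 255 in E2 24 h uteri and 199, 415 and 180.0 in E3 24 h uteri, against 135, 119 and 179 in vehicle uteri. Of these 7, 2 (28.6%) rose with E2 and 1 (14.3%) with E3, and both counts were near the shares of all genes. Between E2 and E3 0 were called, with 0 at an unadjusted p under 0.05 in limma's test, against 6080 of 20321 genes. For this and the following lists, E2 calls over all genes were 21.0% upward and 22.4% downward. The E3 calls were 9.63% upward and 10.7% downward. Between the oestrogens, 8.97% of all genes were called in favour of E2 and 6.76% in favour of E3. For 5 macrophage markers the sum was 14.8, 12.0 and 15.3 with E2 and 14.97, 33.8 and 22.1 with E3, against 9.33, 9.49 and 10.1 with vehicle. Of these markers 4 of 5 were called higher with E3 than with vehicle and 2 of 5 lower with E2 than with E3. For 6 lymphocyte markers it was 0.344, 0.455 and 0.709 with E2 and 0.726, 1.78 and 1.53 with E3, against 0.945, 1.46 and 1.44 with vehicle. For 7 granulocyte markers it was 8.53, 11.4 and 3.60 with E2 and 2.62, 5.65 and 17.1 with E3, against 2.91, 9.48 and 3.98 with vehicle, with Epx not well above background on any oestrogen array. The 6 stromal markers summed to 524, 535 and 476 with E2 and 542, 592 and 659.8 with E3. In vehicle uteri the sums were 334, 355 and 385. Of these markers 4 rose and 2 fell with E2 while 4 rose with E3. The 2 stromal falls were 33.3% of the list, beside 22.4% of all genes. For 5 smooth muscle markers the sum was 849, 733 and 514 with E2 and 669, 727 and 821 with E3, against 357, 415 and 525 with vehicle, and 3 rose with E2 and 5 with E3. For 4 erythrocyte markers on the array the median sum was 33.7 with E2 and 32.7 with E3, against 13.9 with vehicle, the arrays of either oestrogen all above the vehicle arrays, and 2 of the 3 tested rose with each oestrogen. Adipocyte markers varied widely within groups, with sums of 3.17 to 65.4 with E2 and 16.3 to 50.3 with E3, against 5.02 to 91.1 with vehicle. None of the 5 was called in limma's test with E2, with E3 or between them, and 0 had an unadjusted p under 0.05. Over all genes 10429, 7293 and 6080 of 20321 had such a p in these comparisons. For 5 endothelial markers the sum was 5.68, 5.26 and 8.03 with E2 and 8.97, 11.0 and 14.9 with E3, against 10.2, 12.5 and 9.38 with vehicle, and 4 of 5 fell with E2. E3 24 h replicate 1, the highest array of its group for most mitotic genes, had the lowest sum of its group for the macrophage, lymphocyte, granulocyte, stromal, smooth muscle and endothelial lists, and not for the other lists. The part of these cells in the differences of the mitotic genes was not tested.

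Promoter sequence was a feature that the choice of the 36 did not use. Windows of 300 bases, from 250 before to 50 after the annotated start (RefSeq, GRCm38.p6), were found for 33 members, and Aurkb, Tpx2 and Kif20a had no entry in the table. Motifs were searched on both strands as exact letters: TTTGAA, the cell cycle genes homology region (CHR) bound by MuvB complexes; CCAAT, the box bound by NF-Y; GGGCGG, the GC box; TTTCCCGC, TTTGGCGC, TTTCGCGC and TTTGCCGC, forms of the E2F element; and the palindromic oestrogen response element, written as GGTCA, any 3 bases and TGACC. The CHR letters were found in 25 of 33 windows (75.8%), against 18.1% of 27025 promoters in the table. The NF-Y box was in 26 (78.8%, against 37.9%), both motifs were in 22 (66.7%, against 7.12%), and the GC box was in 25 (75.8%, against 35.9%). An E2F form was in 1 window, that of Cdk1 (3.03%, against 2.32%), and the oestrogen response element in 0, against 0.0666% of all promoters. In the last 150 bases of the window the CHR share was 72.7% of members, against 8.08% of all promoters. A match is a description of letters and not of binding, and a window without one shows only that these letters were not in it.

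Windows of 6 members are shown because they carry both motifs and come from entry kinases and cyclins, activators of the anaphase-promoting complex and Top2a, whose values are given above: chr2:164769679-164769978 (plus strand) for Ube2c, chr9:70421505-70421804 (minus strand) for Ccnb2, chr7:122159185-122159484 (plus strand) for Plk1, chr10:69352863-69353162 (minus strand) for Cdk1, chr4:118437294-118437593 (minus strand) for Cdc20 and chr11:99024140-99024439 (minus strand) for Top2a, all GRCm38.p6. They are written 5′ to 3′ in the direction of the gene, and capitals mark CHR and NF-Y box letters on either strand.
Ube2c: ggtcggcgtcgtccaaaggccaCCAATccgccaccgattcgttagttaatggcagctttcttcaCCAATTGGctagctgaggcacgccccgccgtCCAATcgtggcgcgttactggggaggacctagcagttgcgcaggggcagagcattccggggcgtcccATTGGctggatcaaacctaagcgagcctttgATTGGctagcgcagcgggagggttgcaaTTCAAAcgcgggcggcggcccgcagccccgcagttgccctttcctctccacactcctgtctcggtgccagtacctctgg
Ccnb2: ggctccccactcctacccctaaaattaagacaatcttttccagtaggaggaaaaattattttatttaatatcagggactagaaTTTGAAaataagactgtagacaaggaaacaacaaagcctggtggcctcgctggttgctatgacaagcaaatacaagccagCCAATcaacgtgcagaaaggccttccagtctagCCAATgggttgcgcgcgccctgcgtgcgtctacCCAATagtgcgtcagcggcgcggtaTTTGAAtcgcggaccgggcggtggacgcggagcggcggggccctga
Plk1: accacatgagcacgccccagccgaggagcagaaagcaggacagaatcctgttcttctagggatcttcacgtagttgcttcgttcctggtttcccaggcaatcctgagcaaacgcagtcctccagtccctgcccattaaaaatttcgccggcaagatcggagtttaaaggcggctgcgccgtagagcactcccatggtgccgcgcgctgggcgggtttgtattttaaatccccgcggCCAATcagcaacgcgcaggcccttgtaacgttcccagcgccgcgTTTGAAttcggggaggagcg
Cdk1: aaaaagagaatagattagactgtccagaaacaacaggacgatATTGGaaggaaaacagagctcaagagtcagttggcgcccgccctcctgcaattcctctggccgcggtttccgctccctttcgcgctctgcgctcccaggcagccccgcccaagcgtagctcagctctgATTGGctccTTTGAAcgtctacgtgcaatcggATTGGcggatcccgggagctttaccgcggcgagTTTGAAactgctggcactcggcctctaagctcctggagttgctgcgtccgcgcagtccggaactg
Cdc20: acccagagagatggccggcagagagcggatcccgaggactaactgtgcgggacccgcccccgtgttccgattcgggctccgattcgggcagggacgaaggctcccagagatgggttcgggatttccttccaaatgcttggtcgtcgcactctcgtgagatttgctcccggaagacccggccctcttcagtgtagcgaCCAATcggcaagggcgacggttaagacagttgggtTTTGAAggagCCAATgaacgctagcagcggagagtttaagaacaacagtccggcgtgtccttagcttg
Top2a: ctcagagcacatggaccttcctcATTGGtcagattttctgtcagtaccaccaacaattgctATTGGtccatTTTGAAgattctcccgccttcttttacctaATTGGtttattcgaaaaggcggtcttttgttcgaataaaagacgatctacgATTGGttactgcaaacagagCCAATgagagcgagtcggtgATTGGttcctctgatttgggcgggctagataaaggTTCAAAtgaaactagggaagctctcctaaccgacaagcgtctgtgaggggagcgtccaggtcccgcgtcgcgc

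In these windows the CHR letters began at base -29 from the annotated start in Ube2c, at -167 and 4 in Ccnb2, at 30 in Plk1, at -71 and -15 in Cdk1, at -18 in Cdc20 and at -179 and -23 in Top2a. NF-Y boxes numbered 6 in Ube2c, where a pair on opposite strands overlaps, 3 in Ccnb2, 1 in Plk1, 3 in Cdk1, 2 in Cdc20 and 6 in Top2a. The members without CHR letters in the window were Birc5, Bub1, Ccnb1, Cenpe, Nek2, Nuf2, Nusap1 and Pttg1. The 25 members with the letters had a median change with E2 at 24 h of 1.82 (1.28 for Cenpa to 2.53 for Ube2c), and the 8 without had 1.93 (1.03 for Pttg1 to 2.47 for Ccnb1). With E3 at 24 h the medians were 0.74 with and 0.59 without the letters, and for E2 minus E3 at 24 h they were 1.21 with and 1.25 without.

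**Figure D5:**
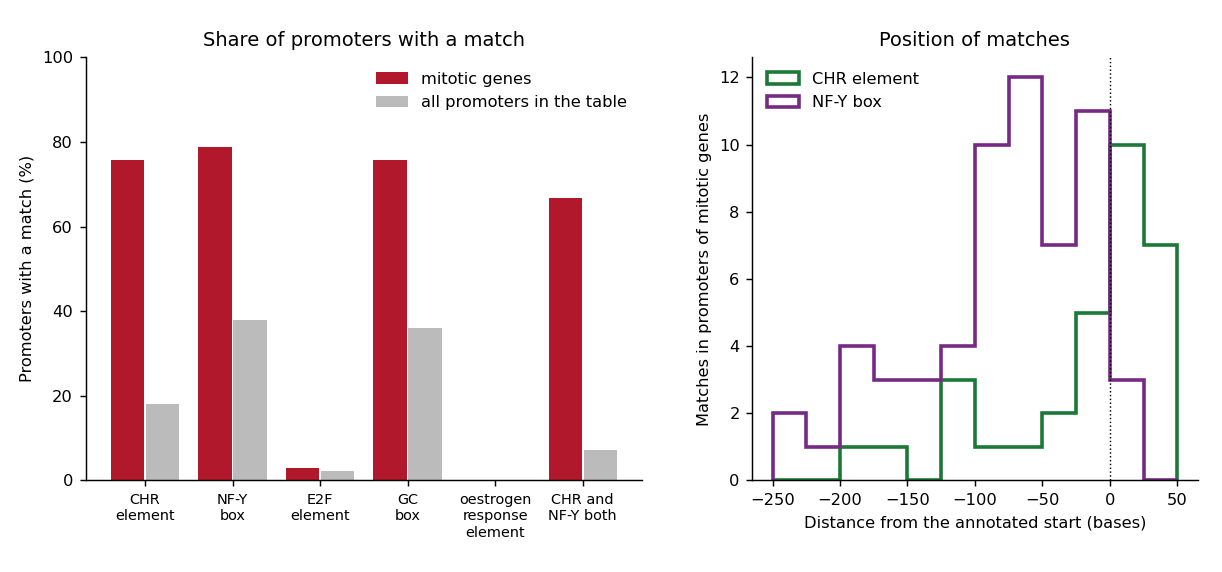
Left, share of promoter windows with a match (vertical axis, %) for the 33 mitotic genes with a window and for all 27025 promoters; right, number of CHR and NF-Y box matches in the windows of the mitotic genes by distance from the annotated start (bases, in bins of 25). The CHR share is 75.8% of mitotic genes against 18.1% of all promoters, and most CHR matches lie near the start.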

How the data were processed

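Total RNA of 15 uterus samples was measured on 1-colour Agilent arrays, 3 in each of 5 groups. The deposited files hold spot intensities from Agilent Feature Extraction (9.5 per the submitters' processing notes, 9.5.3.1 per the file headers), and the processed intensity was background-subtracted and detrended per the file headers. The deposited value table held the same intensities and gave no independent alternative. Replicate numbers come from the labels.

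Here control spots and outlier spots were left out, the processed intensity was taken to log2 and the 75th percentile of the array was subtracted. Spots of a probe were averaged, a probe was kept if every array of some group had it well above background, and a gene was represented by its kept probe with the highest mean. limma 3.58.1 (R 4.3.3) fitted 1 mean per group, two-sided, with Benjamini-Hochberg adjustment over 20321 genes and 10 residual degrees of freedom. The fit was tested on simulated data. Medians over the members are descriptions without a test. The number of arrays limits the precision.

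The 36 members, the gene and marker lists and the tests were chosen with earlier results of these data known. All members were accounted for by role. Values on every array were given for Ccnb1, Cdk1, Plk1, Bub1b, Aurkb, Birc5, Ndc80, Cenpa, Kif11, Kif20a, Tpx2, Cdc20, Ube2c, Anln, Top2a, Mki67 and the 3 called members with the largest rise or fall in each comparison, and from each other list up to 3 rises and 3 falls, with Foxm1, Mybl2, Ccna2, Rbl2 and Cdkn1a always. Alternatives were quantile, array-median and normexp (offset 50) normalization, other probe filters, the mean of probes, fits to the compared groups alone, other variance models, slide, scan day and replicate number as blocks, and each array left out in turn.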

Additional observations from a re-analysis of the deposited data

Results flagged for a closer look

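E2 and E3 differed at 24 h by limma's test of the difference itself for 27 of 36 mitotic genes, against 8.97% of all genes, in each case with the E2 mean above the E3 mean. Entry kinases and cyclins were Aurka (1.16), Ccnb1 (1.10), Cdk1 (1.42), Nek2 (1.33) and Plk1 (1.39), on the log2 scale. Checkpoint kinases were Bub1 (1.63) and Ttk (1.45, with Ttk well above background on 1 of 3 E3 24 h arrays), and passenger subunits were Aurkb (1.55), Birc5 (1.36) and Cdca8 (1.23). Kinetochore members were Cenpe (0.83), Ndc80 (1.64) and Nuf2 (1.24), and kinesins were Kif11 (1.35), Kif20a (1.13), Kif2c (1.22) and Kif4 (1.35). Spindle proteins were Nusap1 (1.25), Prc1 (1.21) and Tpx2 (1.30). Regulators of anaphase were Cdca3 (1.21), Espl1 (1.06) and Pttg1 (0.65), cytokinesis members were Ect2 (1.07) and Racgap1 (1.22), and the others were Mki67 (0.95) and Top2a (1.68).

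The gap between E2 and E3 was larger at 24 h than at 2 h by a test of the difference of differences for Aurkb (1.38), Bub1 (1.46) and Top2a (1.55), 3 of 36 against 3.85% of all genes. That count of 3 ran from 0 to 26 when single arrays were left out, and 0 of 17 further probes of members were called. Members called higher at 24 h than at 2 h numbered 36 with E2 and 24 with E3, against 30.5% and 29.7% of all genes. The count of 27 was 35 without E3 24 h replicate 1 and 13 without E3 24 h replicate 3. It was 15 without E2 24 h replicate 2 and 0 in a fit to the E2 24 h and E3 24 h arrays alone. With slide as a fixed block the E3 24 h mean rested on replicate 2 alone. What set E3 24 h replicate 1 apart was not tested.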

How the results depend on the processing

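For E2 24 h against vehicle, 32 to 36 members were called under every alternative, with medians of 1.74 to 2.13, and leaving out single arrays gave 36 with medians of 1.84 to 2.06. For E3 24 h against vehicle the count of 13 became 20 with the array median as the scale, 7 with no filter on dim probes, 0 in a fit to those groups alone, 5 with slide as a random block, 4 with scan day as a block, 5 on scan day 1 alone and 1 at an adjusted p under 0.01. For E2 against E3 at 24 h the 27 became 0 in the fit to those groups and 17 with scan day as a block. The count became 6 on scan day 1 and 11 at an adjusted p under 0.01. With slide as a fixed block the E3 24 h mean rested on replicate 2 alone, so no count is given. For E2 2 h against vehicle, the 1 call became 2 with the mean of probes, 3 in the groups' own fit, 5 with array weights, and 0 with slide as a random block, with scan day, on scan day 1 and at an adjusted p under 0.01. For E3 2 h against vehicle the 0 became 1 with quantile normalization, array-median scaling, probes above background on all arrays or robust variances, 2 with the mean of probes, 4 in the groups' own fit and 6 with array weights. For E2 24 h against E2 2 h the median of 1.91 became 1.75 with normexp and 2.14 with slide as a fixed block (30 called). For E3 24 h against E3 2 h the 24 became 12 in the groups' own fit and 15 at an adjusted p under 0.01. With slide as a fixed block, where E3 24 h rested on replicate 2 alone, the median was 0.31. The difference of differences, called in 3, was called in 6 with array-median scaling and 1 without the filter. It was called in 5 with probes above background on all arrays, 1 in the groups' own fit and 5 with robust variances. The count was 17 with array weights and 1 with slide as a random block. It was 0 with scan day, scan day 1 alone or an adjusted p under 0.01. With slide as a fixed block, where E3 24 h rested on replicate 2 alone, the median was 1.74. A stricter threshold lowers counts by construction, and the causes of the other changes were not tested. For most of these alternatives no share over all genes is given, so a shift of the members cannot be told from one of all genes.

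Leaving out each array in turn gave 1 to 17 calls (medians 0.37 to 0.95) for E3 24 h against vehicle, 13 to 35 (0.97 to 1.53) for E2 against E3 at 24 h, 0 to 3 (-0.20 to 0.08) for E2 2 h, 0 to 5 (-0.33 to -0.04) for E3 2 h, 0 (0.02 to 0.30) for E2 against E3 at 2 h, 35 to 36 (1.83 to 1.99) for E2 24 h against 2 h, 16 to 27 (0.57 to 1.15) for E3 24 h against 2 h, and 0 to 26 (0.83 to 1.41) for the difference of differences. Deviations of samples of equal replicate number in different groups correlated at -0.22 to 0.21 (median -0.02, 30 pairs). Those of unequal number correlated at -0.26 to 0.25 (median 0.02, 60 pairs). Some samples of equal number also shared a slide. With a replicate block 36, 10 and 24 members were called for E2 24 h, E3 24 h and their difference, and 1 for the difference of differences. Across single members and settings, 8945 values kept direction and side of the threshold, 139 passed it newly, 483 lost it and 0 reversed. Over all genes, 4127 called for E3 24 h against vehicle became 1 in the groups' own fit and 1400 without vehicle replicate 1. The 3196 for E2 against E3 at 24 h became 362 in the groups' own fit. Array-median scaling moved the all-gene median from -0.02 to 0.20 for E2 24 h and from -0.01 to 0.14 for E3 24 h, with no called member changing direction.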
